A study of Mus musculus with 9 samples.

Results

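Male mouse pups of dams fed a high-fat diet with sucrose were given 4-PBA (4-phenylbutyric acid) or its vehicle after birth, and gene expression in their hypothalamus was compared. The comparison used 6 of the study's 9 RNA-seq libraries, 3 from pups injected with 4-PBA (HA) and 3 from pups injected with PBS (HP). All pups were wild-type ICR males, an outbred stock, and the tissue was taken on postnatal day 21. The HP and HA dams started a diet with 45% of its energy as fat, with sucrose, at 5 weeks of age. Mating followed after 5 weeks of the diet, which was kept during pregnancy and while the dams nursed. Pups were injected once a day from postnatal day 4 to postnatal day 16, litters held 10 pups, and the dose of 4-PBA is not given in the sources used here. The other 3 libraries (LP) came from PBS-injected pups of dams on a low-fat diet with 10% of its energy as fat. They entered the model for its estimate of the spread, and their values stand beside the others without a test, because HP is the reference of both contrasts. Of 54532 genes in the count table, 17546 had enough counts to be tested. Whether pups were littermates is not given, so a p-value reflects only how far these libraries vary, and part of that may be technical.

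4-PBA is known both as a chemical chaperone, which helps proteins fold in the endoplasmic reticulum (ER), and as an inhibitor of histone deacetylases. Unfolded protein in the ER activates 3 sensors. ATF6 and IRE1 act on genes of chaperones and of protein disposal, IRE1 by splicing the mRNA of the transcription factor XBP1, while PERK slows translation and raises the transcription factor ATF4. The hypothalamus holds the neurons that set feeding, growth, stress hormones and body temperature, and ER stress in this tissue is known to blunt its response to leptin. Gene lists for these functions, for the cell types of the tissue and for its neighbours were described by counts and by the median log2 change, beside the same figures for all genes tested. Brackets after a median hold its lowest and highest value when each of the 9 libraries was left out in turn.

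Total counts lay between 18226924 and 21823961 per library. Transcripts of the labelled tissue were present in every library. Nkx2-1, the homeobox gene of the ventral forebrain and hypothalamus, stood at 41.8, 46.3 and 38.3 CPM (counts scaled to library size) in HP and at 38.6, 45.6 and 46.4 CPM in HA, and Sim1, of the paraventricular nucleus, at 14.7, 15.4 and 17.3 CPM in HP and 14.8, 17.8 and 14.7 CPM in HA. Markers of neighbouring brain regions were present too, at close levels in these 6 libraries. The lists summed to 491 to 515 CPM for striatum, 891 to 909 CPM for cortex and hippocampus and 549.8 to 602 CPM for thalamus, beside 454 to 498 CPM for hypothalamic transcription factors. In LP the striatal list was higher, at 722, 892 and 532 CPM. Cortex and hippocampus stood there at 1020, 1025 and 885 CPM and thalamus at 568, 564 and 641 CPM. Pituitary markers summed to 370, 390 and 363 CPM in HP, 404, 418 and 425 CPM in HA and 399, 378 and 415 CPM in LP. The 11 tested had a median log2 change of 0.45 (0.28 without HP replicate 3 to 0.58 without HP replicate 2), and none was called. Within the Hg43 libraries the median was 0.24 and within the Hg13 pair 0.43, codes explained below. Medians within a code, here and below, are of differences in mean log2 CPM with a prior count of 2. This is not the edgeR estimate, so a median over all libraries can lie outside both. The edgeR median of the pituitary list with the Hg43 libraries of HP and HA alone was 0.27. The part of pituitary tissue in the samples was not tested. One library stood apart. On the first principal component of the 6 libraries, which held 41.9% of the variance, HA replicate 3 lay at 54.6 and the other 5 between -17.1 and -3.23. The 25 markers of meningeal fibroblasts, cells of the brain's outer membranes, summed to 7075 CPM in HA replicate 3, to 812 CPM in HP replicate 3 and to 253 to 307 CPM in the other 4 libraries of HP and HA. In LP they summed to 197, 251 and 4050 CPM. Dcn, which encodes the matrix protein decorin, stood at 12.9, 20.2 and 20.4 CPM in HP and 14.4, 18.6 and 124 CPM in HA, and Gh, growth hormone of the pituitary, at 0.278, 0 and 0 CPM in HP and 0, 1.34 and 16.2 CPM in HA. Whole-tissue RNA cannot tell fewer cells of a type from less RNA per cell. Library titles also carry a code whose meaning is not stated, with replicate 3 of both groups coded Hg13 and the other HP and HA libraries Hg43, so each group holds the codes in the same proportion.

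2 of the 17546 genes, 0.0114%, passed an adjusted p of 0.05 by the quasi-likelihood test of edgeR with Benjamini-Hochberg adjustment. Nub1 rose and Gm6472 fell, 0.0057% of genes in each direction. At an unadjusted p under 0.05 stood 915 genes, 5.21% of those tested, with 492 estimates higher in HA (2.8%) and 423 lower (2.41%). The 3 HA libraries all lay above the 3 HP libraries for 1038 genes (5.92%) and all below for 1034 (5.89%), 11.8% in all. Estimates were higher in HA for 8910 genes, 50.8%, and the median log2 change over all genes was 0.0024. DESeq2 called 8 of the 16122 genes to which it gave an adjusted p, 0.0496%, and limma-voom called 2, 0.0114%. With edgeR, 9 genes were called without HA replicate 3, 4 without HP replicate 3, 3 without LP replicate 1, and 1, Nub1, without LP replicate 3, HP replicate 1 or 2, or HA replicate 1 or 2. The plot of change against p for all genes shows the 2 called genes above a field centred near 0.

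**Figure D1:**
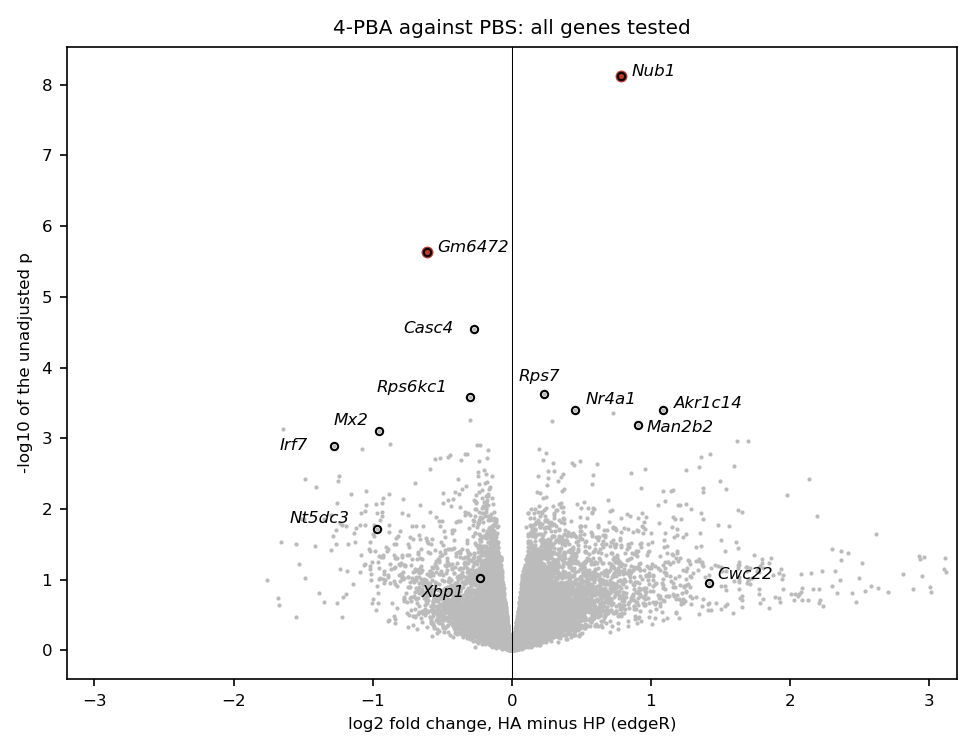
Each point is 1 of the 17546 genes tested, with the log2 change of HA against HP on the horizontal axis, which ends at 3.2 in both directions and leaves 4 genes beyond it, and -log10 of the unadjusted p on the vertical axis. Nub1 on the right and Gm6472 on the left, in red, are the genes with an adjusted p under 0.05.

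Nub1 encodes a protein that binds NEDD8, a small ubiquitin-like modifier, and sends it and its conjugates to the proteasome. It had 39.02, 41.5 and 41.8 CPM in HP replicates 1 to 3 and 71.2, 70.6 and 69.3 in HA replicates 1 to 3. The groups did not overlap, and each of the 3 HA libraries was above each HP library. Nub1 rose from 40.8 ± 1.5 to 70.4 ± 0.97 CPM (mean ± SD, n = 3 each), a log2 change of 0.79 with a standard error of 0.045 and an adjusted p of 0.000131 by edgeR. In LP it stood at 71.2, 71.9 and 71.7 CPM, so HP was the group that lay apart from the other two. The log2 difference was 0.82 between libraries of code Hg43 and 0.73 between the pair of code Hg13. The gene lies at chr5:24685532-24710378 of GRCm38. An antisense gene, Gm26648, overlaps 706 of its exon bases (16.3%) and had a mean count of 20.8 over the 6 libraries against 1078 for Nub1, and the counting is not described as stranded.

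Gm6472 is a transcribed processed pseudogene, a retrocopy at chrX:152909505-152910155 of the mRNA of Rps7, a ribosomal protein gene at chr12:28630854-28635953. Rps7 stood higher in every HA library and the copy lower, and reads of one can match the other, so the sequences of both are shown. Over the 585 coding bases of Rps7 the copy differs at 3 positions, an identity of 99.5%, and the longest identical run is 462 bases. The stretch printed here holds all 3 differences, T26G, G48A and G123T, in capitals, counted from 1 at the A of the Rps7 start codon, with the base of Rps7 first. It covers bases 1 to 150 of the Rps7 coding sequence and bases 36 to 185 of the Gm6472 transcript in GENCODE M21. The whole Gm6472 transcript of 651 bases aligns to Rps7 at 99.4% identity and covers 68.2% of the 954 bases of the Rps7 transcript. Reads from identical stretches match both genes, and how such reads were assigned is not given in the sources used here.
Rps7 coding sequence: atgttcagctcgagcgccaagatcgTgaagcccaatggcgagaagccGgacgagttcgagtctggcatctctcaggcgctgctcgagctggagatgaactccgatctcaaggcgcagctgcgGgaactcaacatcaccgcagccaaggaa
Gm6472 transcript: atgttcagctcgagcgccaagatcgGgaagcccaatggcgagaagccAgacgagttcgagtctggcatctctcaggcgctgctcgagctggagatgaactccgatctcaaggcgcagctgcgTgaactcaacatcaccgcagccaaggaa

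Gm6472 had 70.3, 76.5 and 67.1 CPM in HP and 44.5, 47.5 and 48.3 CPM in HA, with 45.2, 50.1 and 47.8 CPM in LP. All 3 HA libraries were lower than all 3 HP libraries. Its log2 change was -0.61 with a standard error of 0.064 and an adjusted p of 0.0207 by edgeR. The call was lost without HP replicate 1 (adjusted p = 0.157), HP replicate 2 (0.119), HA replicate 1 (0.113), HA replicate 2 (0.179) or LP replicate 3 (0.0556), and in the fit of the 6 libraries alone (0.0657), with log2 changes of -0.62 to -0.55 over these fits. Rps7 had 147, 141 and 139 CPM in HP, 166, 169 and 166 CPM in HA and 171, 181 and 169 CPM in LP. Its HA libraries were all above its HP libraries, with a log2 difference of 0.23 and an adjusted p of 0.847 by edgeR. DESeq2 gave Rps7 an adjusted p of 0.0184. Summed, the pair of genes stood at 217, 218 and 206 CPM in HP and 210.4, 217 and 214 CPM in HA. The log2 difference of the sum was 0.0039, with a 95% interval from -0.088 to 0.10. Gm6472 took 32.4 to 35.1% of the sum in HP, 21.2 to 22.6% in HA and 20.9 to 22.1% in LP. What differed between the groups was thus the division of reads between the gene and its copy, and the interval of the total included 0. The plot of 8 genes by library shows Nub1 and Gm6472 beside Rps7 and genes described further on.

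**Figure D2:**
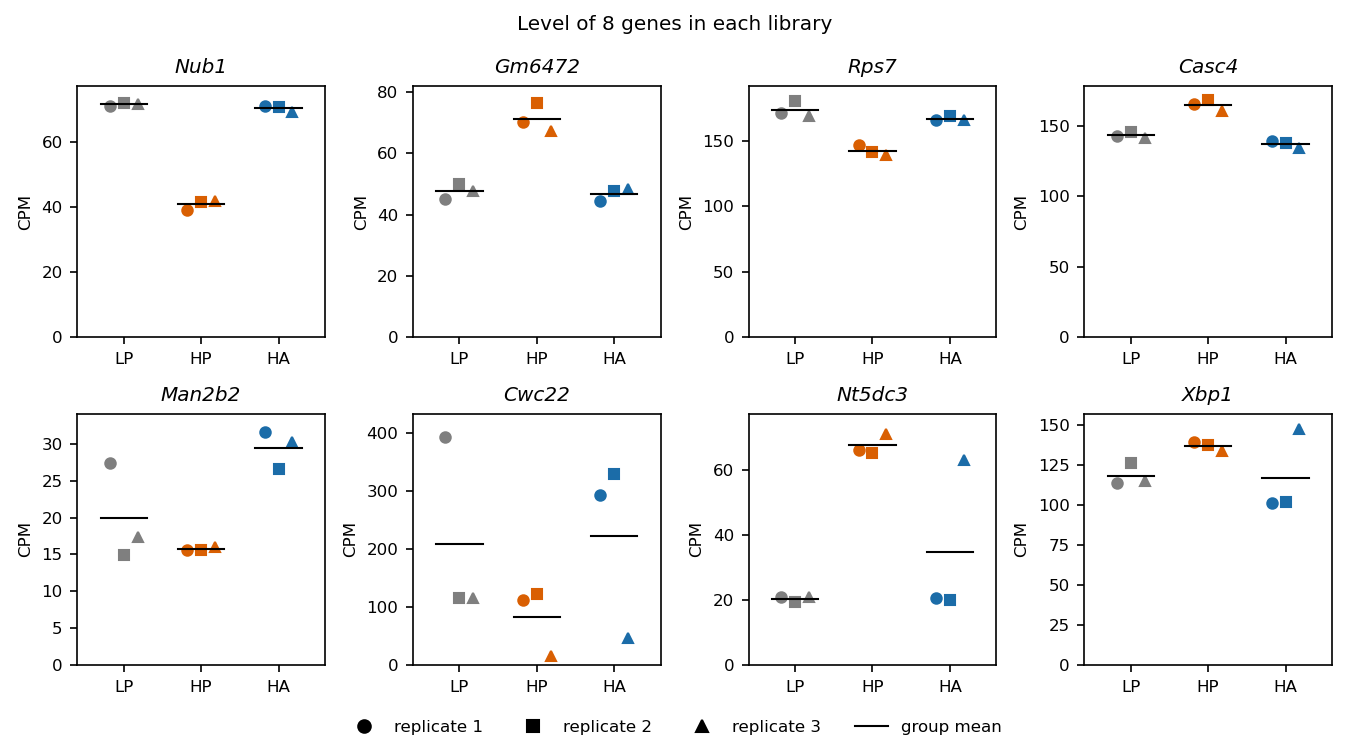
CPM of 8 genes in each library by group, with the replicate number as the symbol and the group mean as a line. The 3 HP libraries of Nub1 lie between 39.02 and 41.8 CPM, below all other libraries, those of Gm6472 lie above them, and Xbp1, Nt5dc3 and Cwc22 differ within a group.

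No other gene of NEDD8 conjugation was called. Of 32 tested, 14 estimates were higher in HA, and the list's median log2 change was -0.014 (-0.034 without HA replicate 1 to 0.0093 without HA replicate 3). Nedd8 itself stood at 98.3, 95.01 and 96.6 CPM in HP and 96.5, 102 and 96.6 CPM in HA, with overlapping ranges. Nae1, a subunit of the enzyme that activates NEDD8, had 43.5, 42.6 and 42.9 CPM in HP and 36.2, 40.1 and 38.2 CPM in HA, all lower, at a log2 difference of -0.17 and an adjusted p of 0.847 by edgeR. Uchl3, a protease that trims the NEDD8 precursor, had 21.3, 26.02 and 23.5 CPM in HP and 18.1, 19.6 and 18.7 CPM in HA, again without overlap, at -0.33 and 0.847. The cullins, the main proteins that carry NEDD8, had log2 differences between -0.079 (Cul2) and 0.10 (Cul5). Proteasome subunits, which take up what Nub1 delivers, had a median of -0.050 (-0.062 without HA replicate 1 to -0.038 without HA replicate 3) over 31 genes, of which 3 estimates were higher in HA and none was called.

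A further group of genes was separated between the groups in all libraries without passing the threshold. Casc4, which encodes a membrane protein of the Golgi, came closest, and shares stretches with 62 other genes. It had 166, 168 and 161 CPM in HP and 139, 138 and 134 CPM in HA, with 143, 146 and 141 CPM in LP, a log2 difference of -0.27 (standard error 0.037) and an adjusted p of 0.165 by edgeR and 0.000134 by DESeq2. Man2b2, a lysosomal mannosidase that trims glycans, had 15.5, 15.6 and 16.001 CPM in HP and 31.6, 26.5 and 30.2 CPM in HA, the largest log2 difference among the 3 genes DESeq2 called higher, at 0.91. In LP it stood at 27.5, 14.97 and 17.4 CPM, with replicate 1 among the HA values, and its adjusted p was 0.847 by edgeR, 0.0021 by DESeq2 and 0.0464 in the 6 libraries alone. DESeq2 also called Rps6kc1, a kinase-like protein of endosomes (HP 74.8, 67.1 and 71.5 CPM, HA 57.04, 55.5 and 60.7 CPM), lower in every HA library. Gm10654, an unclassified transcript also called lower by DESeq2, was at 1.002, 1.14 and 0.889 CPM in HP and 0.04604, 0 and 0 CPM in HA, few counts in any library.

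Among coding genes with the smallest edgeR p-values and no overlap between the groups, those higher in HA came from several functions, each with an adjusted p of 0.847. Akr1c14, a hydroxysteroid dehydrogenase that makes neurosteroids such as allopregnanolone, had 1.56, 1.503 and 1.67 CPM in HP and 3.41, 3.26 and 3.41 CPM in HA, with a log2 difference of 1.09 and 2.63, 3.17 and 3.92 CPM in LP. Itga4, an integrin subunit, had 4.62, 4.09 and 4.55 CPM in HP and 7.41, 7.91 and 6.66 CPM in HA, and Rcn1, a calcium-binding protein of the ER, 51.7, 50.5 and 47.4 CPM in HP and 64.5, 60.96 and 57.4 CPM in HA. Alpk1, an innate immune kinase, had 1.002, 0.881 and 0.366 CPM in HP and 2.03, 3.05 and 2.29 CPM in HA, and Rsrp1, a serine- and arginine-rich nuclear protein, 185, 201 and 179 CPM in HP and 232, 223 and 214 CPM in HA. LP values of Rcn1 (49.97, 50.3 and 47.4 CPM) lay with HP. On the lower side, Itpk1, an inositol phosphate kinase, had 73.4, 71.1 and 70.2 CPM in HP and 58.9, 58.9 and 56.7 CPM in HA, and Paqr8, a membrane progesterone receptor, 223, 224 and 234 CPM in HP and 186, 199 and 188 CPM in HA. Il12rb1, a cytokine receptor subunit, had 3.17, 3.89 and 3.45 CPM in HP and 2.21, 1.82 and 1.65 CPM in HA, and Mboat2, an acyltransferase of membrane lipids, 63.1, 64.9 and 65.1 CPM in HP and 55.1, 56.8 and 53.05 CPM in HA. Dda1, a subunit of a ubiquitin ligase whose cullin carries NEDD8, had 92.4, 91.3 and 91.7 CPM in HP and 81.4, 80.95 and 82.8 CPM in HA, a difference of -0.17 with a narrow range within each group. Hr, a corepressor of the thyroid hormone receptor that is itself a thyroid hormone target, had 75.8, 88.7 and 97.1 CPM in HP and 69.6, 72.02 and 65.9 CPM in HA, and Olig2, the transcription factor of the oligodendrocyte lineage, 95.6, 94.8 and 81.7 CPM in HP and 76.5, 72.8 and 68.4 CPM in HA. Cyp7b1, an oxysterol and neurosteroid hydroxylase, had 10.9, 11.5 and 10.4 CPM in HP and 8.24, 7.65 and 9.32 CPM in HA, so within the list of steroid enzymes it stood opposite to Akr1c14. That list held 15 tested genes with a median of -0.045 (-0.059 without HP replicate 3 to -0.029 without HA replicate 3).

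The chaperone genes under ATF6 and XBP1 were lower in HA replicates 1 and 2 than in HP and were not lower in HA replicate 3. None of the 26 genes of this list was called, 5 estimates were higher in HA, and the median log2 change was -0.075 (-0.12 without HA replicate 3 to -0.042 without HA replicate 2) against 0.0024 for all genes. Several of them carry the ER stress element, CCAAT and CCACG with 9 bases of any kind between them, to which ATF6 binds with its partner, in the 250 bases before a RefSeq start on GRCm38.p6. A match on either strand was found for 8 of the 22 members with a window, 36.4%, and for 35 of 27025 genes, 0.13%. The members were listed for known control by these factors, so the share describes the list. Matches of 5 members whose values follow are printed 5′ to 3′ on the strand of the gene, with the 19 matching bases in capitals and 5 bases on each side. The second window of Hsp90b1 and that of Creld2 hold the element in reverse.
Hspa5 chr2:34772020-34772048 plus strand: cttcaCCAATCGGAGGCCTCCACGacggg
Hsp90b1 chr10:86705633-86705661 minus strand: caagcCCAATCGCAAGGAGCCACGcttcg
Hsp90b1 chr10:86705528-86705556 minus strand: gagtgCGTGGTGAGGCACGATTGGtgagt
Dnajc3 chr14:118937822-118937850 plus strand: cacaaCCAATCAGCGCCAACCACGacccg
Creld2 chr15:88819515-88819543 plus strand: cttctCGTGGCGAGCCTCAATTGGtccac
Pdia6 chr12:17266486-17266514 plus strand: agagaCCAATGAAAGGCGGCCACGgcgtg

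Xbp1 stood at 139, 137 and 133 CPM in HP and at 101, 102 and 147 CPM in HA, with 113, 126 and 115 CPM in LP. HA replicates 1 and 2 were the lowest of the 9 libraries and HA replicate 3 the highest. The log2 difference was -0.23 with a standard error of 0.12 and an adjusted p of 0.847 by edgeR over all libraries. Without HA replicate 3 it was -0.42, with an adjusted p of 0.0355. Hspa5, the main ER chaperone BiP, had 736, 760.4 and 712 CPM in HP and 602, 611 and 742 CPM in HA. Pdia4, a disulfide isomerase, had 73.02, 69.1 and 70.96 CPM in HP and 54.2, 53.2 and 75.1 CPM in HA, and its adjusted p was 0.0702 without HA replicate 3. These genes share one order, with HA replicates 1 and 2 below the HP range and HA replicate 3 within or above it. Dnajc3, a cochaperone of BiP that also inhibits PERK, had 125, 141 and 127 CPM in HP and 111, 103 and 142 CPM in HA. Creld2, a secreted ER stress protein, had 27.1, 31.8 and 31.5 CPM in HP and 23.99, 23.05 and 32.9 CPM in HA, and Sdf2l1, a partner of BiP, 27.5, 35.1 and 30.6 CPM in HP and 22.9, 24.5 and 31.5 CPM in HA. Pdia6, a further disulfide isomerase, had 247, 245 and 228 CPM in HP and 214, 206 and 246 CPM in HA, and Hsp90b1, the ER member of the HSP90 family, 431, 439 and 409 CPM in HP and 401, 363 and 414 CPM in HA. Herpud1, which serves the disposal of ER proteins, had 71.7, 73.97 and 77.6 CPM in HP and 58.7, 62.6 and 82.9 CPM in HA. The same order is seen in the heat map of ER stress genes. Over the list, HA replicates 1 and 2 were both below all HP libraries for 16 of 26 genes, 61.5%, against 12.2% of all genes. HA replicate 3 was above both of them for 24, 92.3%, against 36.9% of all genes. This count was chosen after the values were seen. The median was -0.14 between the libraries of code Hg43 and 0.10 between the Hg13 pair, so its sign differed between the codes. The part of HA replicate 3's meningeal signal in this was not tested. The sensors themselves differed little. Atf6 had 49.4, 47.4 and 45.1 CPM in HP and 46.1, 48.2 and 50.7 CPM in HA, and Ern1, which encodes IRE1, 22.4, 19.9 and 23.3 CPM in HP and 21.2, 20.3 and 26.2 CPM in HA. Mbtps1, the protease that cleaves ATF6, was higher in all HA libraries, at 103, 104 and 106 CPM in HP against 108, 115 and 122 CPM in HA.

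**Figure D3:**
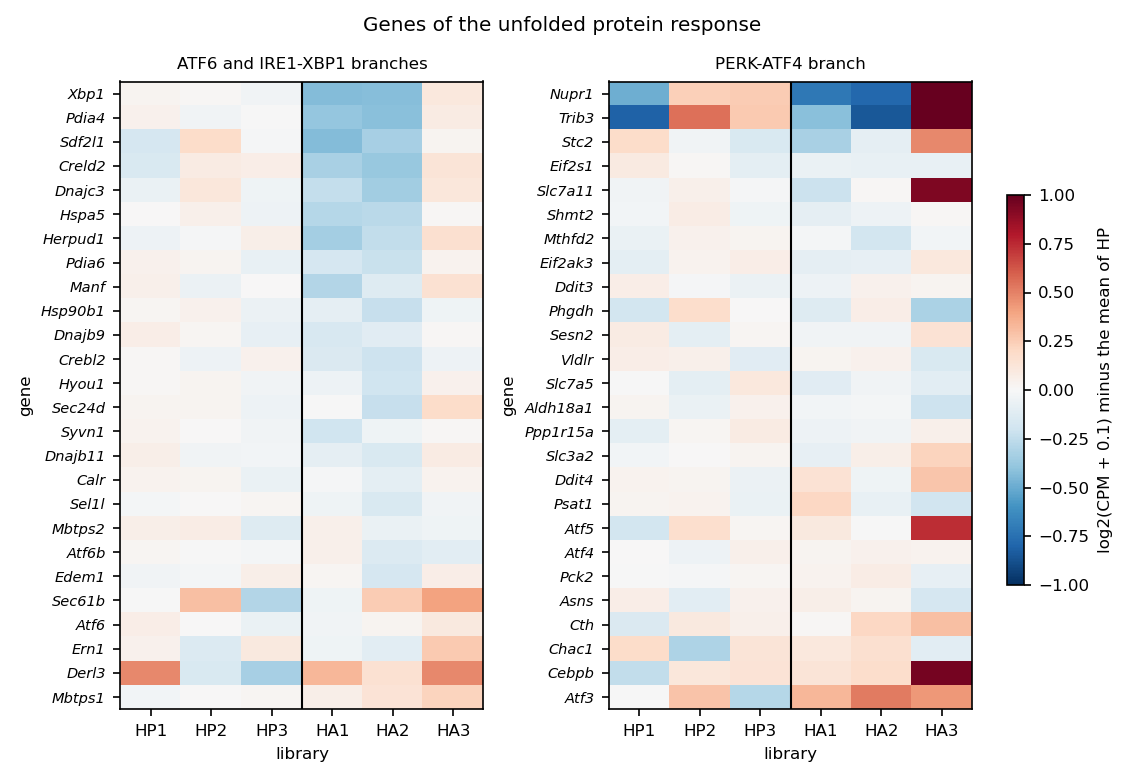
Heat maps of the 26 genes of the ATF6 and IRE1-XBP1 branches and the 26 genes of the PERK-ATF4 branch, 1 gene a line and 1 library a column, coloured by log2 of CPM plus 0.1 minus the HP mean, with the colours ending at 1 in both directions. In the first map HA replicates 1 and 2 are below the HP mean for most genes and HA replicate 3 is not, and the second map shows no such order.

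The PERK branch showed no such order. None of its 26 genes was called, 15 estimates were higher in HA and the median was 0.016 (-0.013 without HA replicate 3 to 0.033 without HP replicate 1). Atf4, its transcription factor, had 106, 102 and 109 CPM in HP and 108, 109 and 108 CPM in HA, and Ddit3, which encodes the proapoptotic factor CHOP, 27.9, 26.5 and 25.6 CPM in HP and 25.7, 27.5 and 27.1 CPM in HA. Both genes overlapped fully between the groups, and the 95% interval of the log2 difference ran from -0.080 to 0.15 for Atf4 and from -0.15 to 0.16 for Ddit3. HA replicates 1 and 2 were both below HP for 2 of the 26 genes, 7.69%, against 12.2% of all genes. Asns, the asparagine synthetase that ATF4 controls, had 73.1, 64.7 and 71.9 CPM in HP and 72.7, 71.2 and 62.2 CPM in HA. Nupr1, a stress protein, had 2.06, 3.47 and 3.504 CPM in HP and 1.75, 1.66 and 36.1 CPM in HA, high in HA replicate 3 alone. In the wider list of ER folding enzymes and ER-associated degradation, 30 genes had a median of -0.0076 (-0.042 without HA replicate 3 to 0.0066 without HA replicate 2), and none was called. HA replicates 1 and 2 were both below HP for 12 of them, 40%, against 12.2% of all genes. Uggt1, which senses misfolded glycoproteins, was lower in every HA library at 89.4, 94.4 and 91.4 CPM in HP against 85.5, 86.4 and 89.1 CPM in HA.

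Cytosolic heat shock genes, in a list that also holds the mitochondrial chaperone gene Hspd1, resembled the ATF6 list in part. 4 of 20 estimates were higher in HA, none was called, and the median was -0.059 (-0.10 without HP replicate 3 to -0.036 without HP replicate 1). HA replicates 1 and 2 were both below HP for 9 of 20, 45%, against 12.2% of all genes. All HA libraries were below HP for 4 of the 20, against 5.89% of all genes, and above HP for 0, against 5.92%. Hspa1b, an inducible HSP70, had 26.8, 29.3 and 24.8 CPM in HP and 16.5, 15.03 and 26.6 CPM in HA, with 12.9, 19.8 and 16.9 CPM in LP, and HA replicate 3 again lay in the HP range. Hspa4l, an HSP110 family member, had 317, 295 and 308 CPM in HP and 288, 268 and 267 CPM in HA, lower in all HA libraries, as were Hspa8, the constitutive HSC70, and Hspd1, the mitochondrial HSP60, at log2 differences of -0.081 and -0.11. Hsp90ab1, constitutive HSP90, differed by -0.0057. Outside the list, Hspa1l, a relative of HSP70, had 0.779, 0.311 and 0.575 CPM in HP and 1.38, 1.604 and 1.49 CPM in HA, higher in all HA libraries. An antisense gene overlaps 71.9% of its exon bases.

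Genes of histone acetylation were close to level. 23 deacetylases, sirtuins and their corepressors had a median of 0.0052 (-0.013 without HP replicate 1 to 0.023 without HA replicate 1), 19 acetyltransferases and acetyl readers one of 0.0050 (-0.010 without HA replicate 3 to 0.0089 without LP replicate 3), and no gene of either list was called. All HA libraries lay above HP for 1 and 0 genes of the 2 lists, against 5.92% of all genes. They lay below for 1 and 2, against 5.89%. Hdac2 had 99.7, 103 and 103 CPM in HP and 95.3, 96.03 and 97.7 CPM in HA, lower in all HA libraries at a log2 difference of -0.081, and Sirt5, a mitochondrial desuccinylase, 9.07, 9.901 and 10.3 CPM in HP and 12.8, 11.2 and 11.3 CPM in HA, higher in all. Acss2, which makes acetyl-CoA from acetate, had 56.99, 59.04 and 51.5 CPM in HP and 48.8, 43.3 and 46.02 CPM in HA, lower in all. 14 genes known to respond to deacetylase inhibitors in other cells had a median of 0.035 (-0.033 without HA replicate 3 to 0.053 without HP replicate 2), with 8 estimates higher in HA. Of these 14, 1 lay above HP in every HA library, against 5.92% of all genes, and 2 below, against 5.89%. The median was -0.044 within code Hg43 and 0.17 within Hg13, so its sign differed between the codes. Cdkn1a, which encodes the cell cycle inhibitor p21 and is raised by such inhibitors in many cell lines, had 53.1, 56.9 and 53.6 CPM in HP and 44.6, 47.9 and 49.5 CPM in HA, lower in all HA libraries, at -0.21 and an adjusted p of 0.847 by edgeR. The linker histone gene H1f0, another classical responder, had 145, 133 and 132 CPM in HP and 148, 136 and 134 CPM in HA, a difference of 0.024 with a 95% interval from -0.094 to 0.14. Clu, the extracellular chaperone clusterin, had 684, 711 and 663 CPM in HP and 734, 736 and 788 CPM in HA, higher in all, and Mt1, the metal-binding metallothionein, 259, 283 and 282 CPM in HP and 237, 244 and 229.7 CPM in HA, lower in all. Abcd2, a peroxisomal fatty acid transporter raised by phenylbutyrate in other tissues, had 34.9, 36.9 and 32.8 CPM in HP and 30.8, 31.7 and 35.1 CPM in HA, a difference of -0.10. In the list of DNA methylation, 13 genes had a median of 0.041 (0.038 without LP replicate 2 to 0.087 without HP replicate 2).

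Immediate early genes, the first transcripts to answer neuronal activity, stood higher in HA. Of 26 tested, 24 estimates were higher, and the median log2 change was 0.29 (0.20 without HA replicate 3 to 0.31 without HA replicate 1). 6 had all HA libraries above all HP libraries, against 5.92% of all genes. 7 had a higher estimate with an unadjusted p under 0.05 by edgeR, against 2.8% of all genes. None was called after adjustment over all genes. Nr4a1, an orphan nuclear receptor, had 19.6, 17.7 and 19.98 CPM in HP and 27.3, 26.4 and 25.03 CPM in HA, with a log2 difference of 0.46 and an adjusted p of 0.847 by edgeR, and 19.2, 17.96 and 15.6 CPM in LP. Fos had 34.6, 27.5 and 33.7 CPM in HP and 40.7, 41.2 and 40.1 CPM in HA, Junb 31.4, 26.2 and 30.9 CPM in HP and 34.4, 36.6 and 42.1 CPM in HA, and Nr4a3 15.2, 15.03 and 13.96 CPM in HP and 17.6, 23.2 and 19.5 CPM in HA. These 4 transcription factor genes were higher in each HA library than in any HP library, as were the kinase gene Sik1 and Atf3. Egr1 (54.7, 36.1 and 44.9 CPM in HP against 64.1, 61.8 and 54.3 CPM in HA) and Arc, a synaptic protein gene (23.8, 21.3 and 20.03 CPM in HP against 22.9, 26.4 and 23.97 CPM in HA), overlapped. The list's median was 0.20 within code Hg43 and 0.33 within Hg13, and 0.20 without HA replicate 3, so it kept its sign. HA replicate 3 was above all HP libraries for 21 of 26 genes, 80.8%, against 30.6% of all genes. A cAMP response element, TGACGTCA, stood in the 250-base window of 3 of 21 members, 14.3%, and of 1.77% of all genes.

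Interferon-induced genes had lower estimates in HA as a list and were uneven between libraries. Of 27 tested, 7 estimates were higher in HA, the median was -0.38, and none was called. The median was -0.68 within code Hg43 and 0.21 within Hg13, so its sign differed between the codes. Many hold the interferon-stimulated response element, GAAA and GAAA with 2 bases of any kind between them, searched on both strands in the same windows, found for 9 of 20 members with a window, 45.0%, and for 3.46% of all genes. Ifit1 and Rsad2, induced antiviral genes, serve as examples, with the 10 matching bases in capitals, reversed in both.
Ifit1 chr19:34640775-34640804 plus strand: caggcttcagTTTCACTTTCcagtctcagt
Ifit1 chr19:34640794-34640823 plus strand: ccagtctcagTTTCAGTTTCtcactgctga
Rsad2 chr12:26456553-26456582 minus strand: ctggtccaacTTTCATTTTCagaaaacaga

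Irf7, the transcription factor that amplifies the interferon response, had 7.79, 5.18 and 6.17 CPM in HP and 1.38, 3.48 and 3.14 CPM in HA, with 1.56, 1.8003 and 2.42 CPM in LP, a log2 difference of -1.28 and an adjusted p of 0.847 by edgeR. Mx2 had 3.95, 3.21 and 3.19 CPM in HP and 1.61, 1.604 and 2.13 CPM in HA, Rsad2 2.67, 1.92 and 1.41 CPM in HP and 0.599, 1.28 and 1.38 CPM in HA, and Ifi44 6.46, 2.07 and 2.51 CPM in HP and 0.691, 1.55 and 1.704 CPM in HA. All 4 were below HP in every HA library, Rsad2 only narrowly (1.38 against 1.41 CPM), and HP replicate 1 was the highest of the 6 for each. Over the list, 4 of 27 genes were below HP in every HA library, against 5.89% of all genes. Above HP in every one were 0, against 5.92%. Ifit1 had 4.62, 2.44 and 3.35 CPM in HP and 0.599, 2.35 and 3.46 CPM in HA, so HA replicate 1 alone was low, and Bst2, an antiviral membrane protein, 6.73, 7.05 and 7.896 CPM in HP and 2.901, 7.59 and 13.05 CPM in HA, with the highest value in HA replicate 3. The list's median depended on single libraries: it was -0.068 without HA replicate 1, -0.14 without HP replicate 1 and -0.62 without HA replicate 3. Inflammation genes had a median of 0.30 with all 17 estimates higher in HA, and 0.051 without HA replicate 3, so most of that difference came with 1 library. Il1r1, an interleukin receptor, had 3.62, 4.87 and 5.75 CPM in HP and 3.96, 4.33 and 14.97 CPM in HA. Markers of microglia, 20 genes with a median of 0.033 (-0.051 without HA replicate 3 to 0.047 without HP replicate 1), were near level. Cx3cr1, the fractalkine receptor, had 39.2, 34.99 and 34.4 CPM in HP and 35.7, 34.6 and 34.8 CPM in HA.

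Targets of the glucocorticoid receptor included 4 of 17 genes lower in every HA library, against 5.89% of all genes, and none higher in every one. Zbtb16, a transcription factor, had 41.2, 51.9 and 44.8 CPM in HP and 23.2, 34.2 and 34.99 CPM in HA, a log2 difference of -0.58 with an adjusted p of 0.847 by edgeR, and Tsc22d3, which encodes the leucine zipper protein GILZ, 173, 175 and 184 CPM in HP and 127, 153 and 161 CPM in HA. Cdkn1a and Mt1, given above, were the other two. Fkbp5, a cochaperone that dampens the receptor, had 51.3, 59.7 and 69.7 CPM in HP and 35.96, 41.4 and 62.3 CPM in HA, low in HA replicates 1 and 2. Over 17 tested genes the median was -0.14, 0.0094 without HP replicate 2 and 0.015 without HA replicate 2, and none was called. It was -0.16 within code Hg43 and 0.17 within Hg13. Nr3c1, the receptor gene, had 110.4, 115 and 101 CPM in HP and 108, 105 and 117 CPM in HA, and Crh, the hypothalamic hormone at the head of the stress axis, 10.5, 3.52 and 4.602 CPM in HP and 3.64, 3.42 and 2.34 CPM in HA, with HP replicate 1 above the rest. The heat maps of immediate early, interferon and glucocorticoid genes show these libraries side by side.

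**Figure D4:**
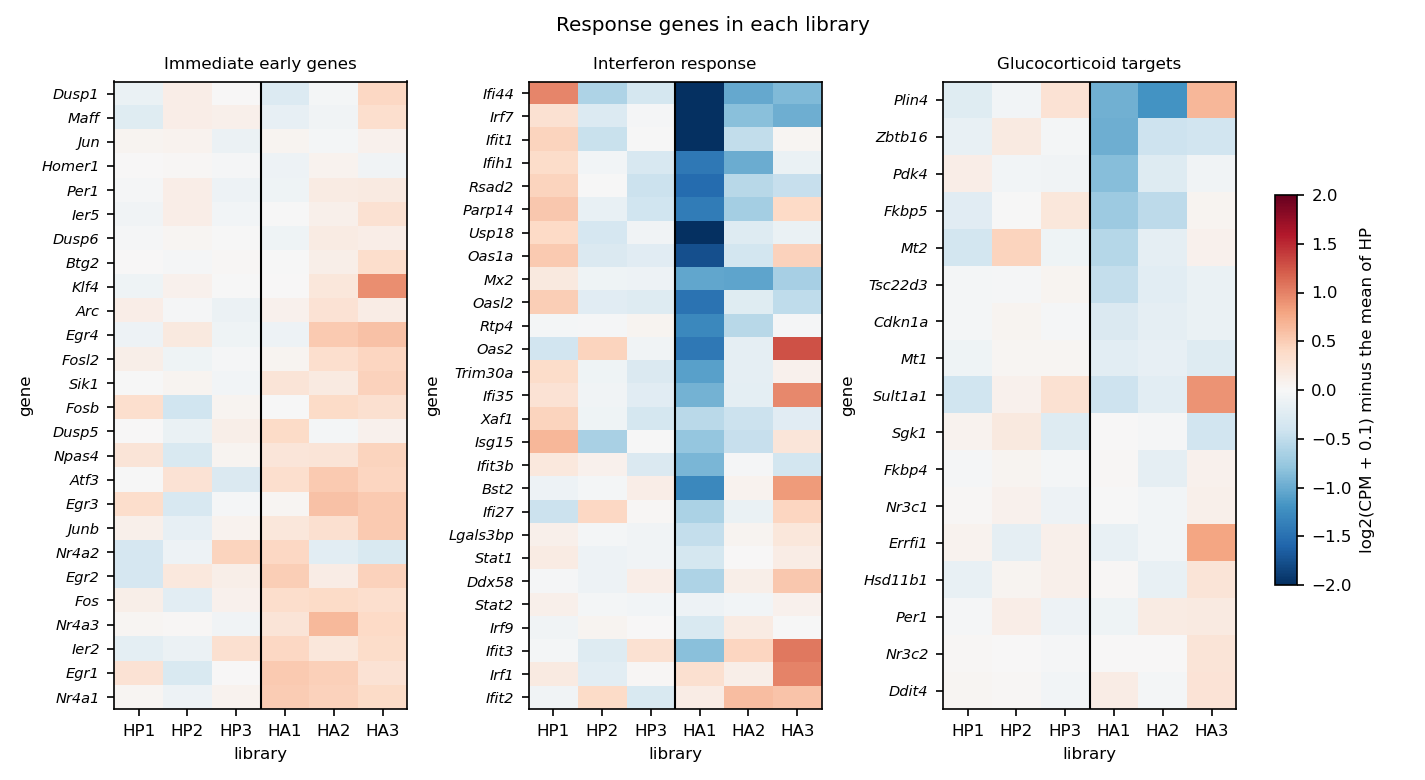
Heat maps of immediate early genes, interferon-induced genes and glucocorticoid receptor targets in the 6 libraries, coloured by log2 of CPM plus 0.1 minus the HP mean, with the colours ending at 2 in both directions. Immediate early genes are mostly above the HP mean in all 3 HA columns, and interferon-induced genes are lowest in HA replicate 1.

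Peptide genes of the arcuate nucleus, which oppose each other in feeding, had higher estimates in HA and overlapped between groups. Agrp and Npy, which promote feeding, had 9.02, 16.1 and 12.1 CPM and 25.05, 33.1 and 25.2 CPM in HP and 10.7, 16.3 and 15.2 CPM and 27.4, 41.01 and 38.03 CPM in HA. Pomc and Cartpt, which restrain it, had 52.04, 79.3 and 59.1 CPM and 79.6, 107 and 80.4 CPM in HP and 63.5, 85.9 and 87.5 CPM and 97.1, 106 and 96.8 CPM in HA. Within both groups replicate 1 had the lowest Agrp, Npy and Pomc, and the log2 differences of 0.17, 0.35, 0.31 and 0.17 had adjusted p-values of 0.847 to 0.906 by edgeR. Hcrt, which encodes the wake peptide orexin, had 117, 59.8 and 153 CPM in HP and 121, 51.4 and 54.3 CPM in HA, a spread within groups larger than the difference between them. Of 22 appetite peptides none was called, the median was 0.058 (-0.016 without HP replicate 1 to 0.061 without LP replicate 3), none was higher and 3 were lower in every HA library, against 5.92% and 5.89% of all genes. These were Nmu, a peptide that reduces feeding (1.06, 1.3996 and 0.889 CPM in HP against 0.552, 0.588 and 0.746 CPM in HA), Nts, neurotensin (42.9, 33.3 and 36.4 CPM in HP against 32.5, 27.3 and 28.1 CPM in HA), and Ghrl, ghrelin (2.34, 2.28 and 2.09 CPM in HP against 1.52, 1.71 and 0.959 CPM in HA). Of 33 receptors and signalling genes of energy balance none was called and the median was 0.031 (0.0064 without HA replicate 3 to 0.034 without LP replicate 3). Glp1r, the receptor of the incretin GLP-1, had 5.73, 6.01 and 6.798 CPM in HP and 7.92, 8.45 and 7.83 CPM in HA, higher in all, and Cnr1, the cannabinoid receptor, 133, 118 and 122 CPM in HP and 114, 116 and 109 CPM in HA, lower in all. Lepr, the leptin receptor, had 6.73, 6.998 and 7.58 CPM in HP and 5.202, 9.41 and 22.4 CPM in HA and 6.38, 7.63 and 17.1 CPM in LP. It was high in HA and LP replicates 3, the libraries with the highest meningeal sums, and its log2 difference was 0.022 without HA replicate 3 against 0.77 with it. Mc4r, the melanocortin receptor through which POMC peptides act, had 6.23, 4.46 and 5.23 CPM in HP and 5.06, 3.74 and 5.65 CPM in HA. Insr, the insulin receptor, had 59.1, 59.1 and 60.97 CPM in HP and 60.1, 61.3 and 61.6 CPM in HA, and Socs3, which blunts leptin signalling, 3.06, 3.94 and 3.24 CPM in HP and 3.82, 3.69 and 5.59 CPM in HA.

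Of 11 releasing and neurosecretory hormone genes tested, 2 were above HP in every HA library, against 5.92% of all genes, and 1 was below, against 5.89%. Sst and Ghrh, hypothalamic regulators of growth hormone, were higher in every HA library. Sst, somatostatin, which inhibits its release, had 156, 149 and 144 CPM in HP and 171, 166 and 177 CPM in HA, a log2 difference of 0.20. Ghrh, which stimulates it, had 4.51, 5.65 and 5.12 CPM in HP and 6.12, 8.45 and 6.34 CPM in HA, a difference of 0.44. Both had an adjusted p of 0.847 by edgeR, and their LP values were 173, 146 and 156 CPM and 5.65, 5.78 and 6.45 CPM. Of the 11 genes 4 had higher estimates in HA, none was called, and the median was -0.21 (-0.25 without HP replicate 2 to -0.014 without HP replicate 3). In differences of mean log2 CPM the median was -0.061 within code Hg43 and 0.030 within Hg13, and the edgeR median with the Hg43 libraries alone was -0.025. Avp and Oxt, vasopressin and oxytocin, had 456, 587 and 554 CPM and 184, 151 and 146 CPM in HP and 385, 639 and 726 CPM and 93.3, 164 and 158 CPM in HA, lowest in HA replicate 1 for both. Trh had 125, 133 and 131 CPM in HP and 118, 143 and 134 CPM in HA. Secretory granule and prohormone processing genes, 12 in number, had a median of 0.048 (0.0057 without HP replicate 1 to 0.059 without HA replicate 1). Chgb, chromogranin B, had 332, 332 and 318 CPM in HP and 347, 355 and 343 CPM in HA, higher in all. 28 transcription factors of hypothalamic development had a median of 0.059 (-0.014 without HA replicate 2 to 0.15 without HA replicate 1). Nkx2-4 (5.62, 9.75 and 8.63 CPM in HP against 10.5, 11.2 and 10.4 CPM in HA) was higher and Hmx2 (6.18, 4.92 and 5.75 CPM in HP against 4.33, 4.44 and 3.83 CPM in HA) lower in every HA library. Lhx6 and Lhx8, which mark neurons of the neighbouring basal forebrain as well, varied within groups, with 24.1, 4.61 and 10.2 CPM in HP and 8.195, 3.69 and 7.72 CPM in HA for Lhx6. The core clock, 19 genes, had a median of 0.012 (-0.017 without HA replicate 2 to 0.042 without HA replicate 1). It held 1 gene below HP in every HA library, Ciart, against 5.89% of all genes, a share near that of the list. Per2 had 25.9, 25.3 and 26.3 CPM in HP and 24.6, 26.04 and 27.2 CPM in HA.

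Among housekeeping functions the list medians were small, and single members differed more. Cytosolic ribosomal protein genes had 37 of 46 estimates higher in HA and a median of 0.054 (0.035 without HP replicate 3 to 0.091 without HP replicate 2), with 8 genes above HP in every HA library, against 5.92% of all genes, and 2 below, against 5.89%. Rpl37a had 114, 122 and 111 CPM in HP and 141, 133 and 133 CPM in HA and Rpl35 74.7, 78.1 and 70.6 CPM in HP and 85.4, 84.3 and 85.2 CPM in HA. Ribosomal protein genes have many processed copies, as Rps7 does, and the division of reads among them is uncertain. Respiratory chain genes of the mitochondrial genome had a median of -0.083 (-0.090 without HA replicate 1 to -0.054 without HA replicate 3), with 8 of 13 below HP in every HA library, against 5.89% of all genes. mt-Nd6 had 911, 875 and 921 CPM in HP and 851, 793 and 773 CPM in HA and mt-Nd5 3811, 3713 and 3887 CPM in HP and 3558, 3393 and 3456 CPM in HA, genes on opposite strands that overlap by 14 bases. The 33 nuclear genes of the same chain had a median of -0.017 (-0.044 without HP replicate 2 to -0.0047 without HA replicate 2). Sterol synthesis genes had a median of -0.020 (-0.10 without HA replicate 1 to 0.035 without HA replicate 3), and HA replicate 3 was below all HP libraries for 20 of 23, 87%, against 29.1% of all genes. The median was 0.029 within code Hg43 and -0.18 within Hg13. Idi1, an enzyme early in the pathway, was lower in every HA library (51.04, 57.3 and 52.1 CPM in HP against 50.9, 41.1 and 38.1 CPM in HA), and Hmgcs1 (419.9, 427 and 369 CPM in HP against 430.3, 343 and 309.9 CPM in HA) was not. Scd1 and Scd2, the desaturases of fatty acid synthesis, were lower in every HA library, at log2 differences of -0.31 and -0.14. Fatty acid beta-oxidation had 17 of 25 estimates higher in HA and a median of 0.018 (-0.013 without HA replicate 3 to 0.049 without HA replicate 2). Acadm, the medium-chain dehydrogenase that shortens phenylbutyrate among other acids, had 43.2, 44.9 and 42.04 CPM in HP and 45.8, 46.3 and 54.4 CPM in HA, and Decr1, a reductase of the same pathway, 18.2, 19.7 and 17.9 CPM in HP and 20.03, 21.01 and 22.4 CPM in HA, both higher in all. Lysosomal genes, to which Man2b2 belongs, had a median of 0.0038 (-0.0036 without HA replicate 3 to 0.022 without HA replicate 2) over 37 genes, and Ctsz, a lysosomal protease, had 24.9, 27.4 and 22.3 CPM in HP and 28.9, 28.9 and 36.1 CPM in HA. Glutamatergic and GABAergic synapse genes had medians of -0.029 (-0.050 without HA replicate 2 to 0.0033 without HA replicate 3) and -0.035 (-0.067 without HP replicate 2 to -0.010 without HA replicate 3). Gabra3, a receptor subunit, had 160.4, 146 and 149 CPM in HP and 139, 128 and 125 CPM in HA, lower in all. Presynaptic genes had a median of -0.043 (-0.093 without HP replicate 2 to -0.0034 without HA replicate 3), 0.039 within code Hg43 and -0.20 within Hg13. No gene of these lists was called.

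Myelin genes of oligodendrocytes were lower in HA replicates 2 and 3 and not in HA replicate 1. Of 23 genes tested, none had a higher estimate in HA, none was called, and the median was -0.27. Mbp, myelin basic protein, had 8244, 8489 and 7082 CPM in HP and 8383, 6042 and 4786 CPM in HA, and Mobp, a further myelin protein, 2114, 2260.0 and 1866 CPM in HP and 2029.8, 1457 and 1186 CPM in HA. HA replicate 3 was below all HP libraries for 23 of 23 genes, against 29.1% of all genes, and HA replicates 1 and 2 were together below them for 0. The median was -0.51 without HA replicate 1 and -0.12 without HA replicate 3. Summed over the list, myelin genes took 22117, 23052 and 19305 CPM in HP, 22212, 16112 and 13242 CPM in HA and 14951, 23022 and 16939.7 CPM in LP, so LP spread over much of the range of both groups. Precursor markers had a median of -0.090 (-0.16 without HA replicate 1 to 0.023 without HA replicate 3) over 14 genes. Olig2, given above, was lower in all HA libraries, and Pdgfra, the growth factor receptor of precursors, had 114, 102 and 118 CPM in HP and 114, 116 and 122 CPM in HA.

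Lists of meningeal, matrix, mural, tanycyte and endothelial genes moved mainly with HA replicate 3. Meningeal fibroblast markers had a median of 1.95, -0.059 within code Hg43, 2.61 within Hg13 and -0.53 without HA replicate 3, and HA replicate 3 was above all HP libraries for all 25, against 30.6% of all genes. Ptgds, the prostaglandin synthase of the meninges, had 98.1, 109 and 508 CPM in HP and 103, 96.1 and 5077 CPM in HA, and Col3a1, a fibrillar collagen, 16.98, 19.8 and 27.6 CPM in HP and 17.9, 21.3 and 295 CPM in HA. Matrix and collagen genes had medians of 0.87 with and 0.027 without that library, mural cell markers 0.57 and 0.063, and tanycyte markers 0.14 and -0.11. Endothelial markers had a median of 0.19 (0.025 without HA replicate 3 to 0.29 without HA replicate 1), and Cldn5, the tight junction protein of brain vessels, was higher in all HA libraries (51.7, 45.8 and 57.8 CPM in HP against 61.003, 60.8 and 70.3 CPM in HA) while Mfsd2a, a lipid transporter of the same cells, was lower in all (60.4, 64.6 and 69.02 CPM in HP against 51.1, 60.2 and 53.8 CPM in HA). Astrocyte markers were level, with a median of -0.011 (-0.044 without HP replicate 1 to 0.012 without HP replicate 2) over 19 genes, and Aqp4, the water channel, had 288, 352 and 267 CPM in HP and 276, 303 and 273 CPM in HA. The plot of list medians by code shows which lists had the same sign in both.

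**Figure D5:**
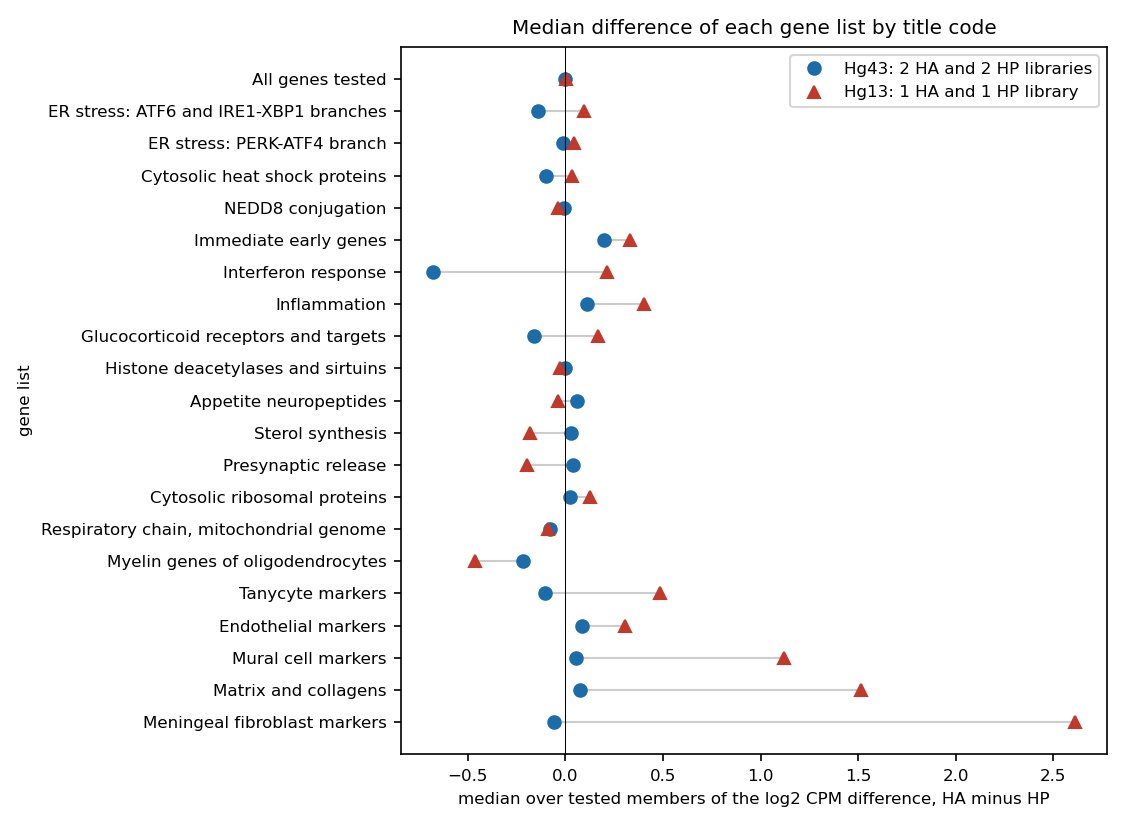
Median log2 difference in CPM of HA against HP for 21 gene lists, as circles for code Hg43 (2 libraries a group) and triangles for code Hg13 (1 library a group). The medians of ATF6 and XBP1 genes (-0.14 and 0.10) and of meningeal markers (-0.059 and 2.61) lie on opposite sides of 0, and those of immediate early genes (0.20 and 0.33) on the same side.

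With the title code as a term in the fit of the 6 libraries, 2 of 17094 genes (0.0117%) were called for treatment, Nub1 and Cwc22. Cwc22, a splicing factor, had 112, 123 and 15.5 CPM in HP and 293, 330.2 and 45.8 CPM in HA, so HA was higher than HP within each code while the groups overlapped. The log2 difference given the code was 1.44, with an adjusted p of 0.000574 by edgeR, against 1.42 and 0.847 with the group alone. In LP it stood at 394, 116 and 116 CPM, and a relative, Gm13691, matches 72.4% of its transcript at 96.9% identity. The code itself (Hg13 against Hg43) was called for 14 of 17094 genes, 0.0819%, with 10 higher in Hg13 and 4 lower, at 3 residual degrees of freedom. That count was 1 without HA replicate 2, 8 without HA replicate 1, 9 without HP replicate 1 and 57 without HP replicate 2. Leaving out replicate 3 of either group keeps only 1 library of code Hg13, so those counts are not given. Cwc22 (-2.83 on the log2 scale, adjusted p = 1.40e-05 by edgeR) led them, followed by Wnt6, a signalling protein, and Kcnk9, a potassium channel. Kcnk9 had 212, 178 and 100.3 CPM in HP and 195, 201 and 97.5 CPM in HA. Wnt6 had 0.390, 0.415 and 2.77 CPM in HP and 0.552, 0.749 and 20.3 CPM in HA, highest in HA replicate 3. Of others higher in Hg13, Itih2 stood at 4.81 CPM in HP replicate 3 and 61.0 CPM in HA replicate 3, and Sumo2 at 61.8 and 52.6 CPM. An interaction term, which sets HA replicate 3 minus HP replicate 3 against the treatment difference in Hg43, passed the threshold for 266 genes, 1.56%. Code Hg13 has 1 library in each group and the 2 residual degrees of freedom come from the Hg43 libraries alone, so these values describe single libraries and do not show a difference between the codes. For 247 of them the difference was larger in Hg13, and 231 of these had their highest value in HA replicate 3. They included 21 of the 24 tested meningeal markers.

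A last set of genes stood at separate levels from library to library, many of them with a near-identical copy. Nt5dc3, a nucleotidase-like protein gene, had 66.2, 65.3 and 70.96 CPM in HP, 20.7, 19.998 and 63.1 CPM in HA and 20.8, 19.4 and 20.9 CPM in LP, with HP and HA replicate 3 high and the other libraries low. Without HA replicate 3 its log2 difference was -1.72 with an adjusted p of 4.63e-06 by edgeR. Vcp, the ATPase that extracts proteins from the ER membrane, had 241, 221 and 166 CPM in HP and 154, 149 and 211 CPM in HA, and its copy Vcp-rs, 99.0% identical over 2421 bases, 139.6, 148 and 236 CPM in HP and 236, 228 and 152 CPM in HA. Their sum was 381, 369 and 402 CPM in HP and 389, 377 and 364 CPM in HA, of which the copy took 36.6, 40.1 and 58.7% and 60.5, 60.4 and 41.9%. In LP it took 59.02 to 61.6%. Gm13736, a copy of Srp9, a gene of the signal recognition particle, took 26.99, 28.3 and 53.2% of their sum in HP and 49.5, 52.2 and 49.7% in HA. Gm10282, a copy of the chromatin protein gene Hmgn2, took 84.6, 83.4 and 70.7% in HP and 45.8, 51.7 and 85.4% in HA. Gm10241, a copy of Sumo2, took 78.0, 76.3 and 9.702% in HP and 62.8, 77.3 and 20.8% in HA. The sum of this pair was not level, at 47.3, 49.9 and 68.4 CPM in HP and 53.5, 44.5 and 66.5 CPM in HA. The share of Gm10241 was lowest and the sum highest in replicate 3 of each group, the single Hg13 library there. The cause was not tested. Gapdh, a glycolytic enzyme gene with sequence shared with 134 other genes, had 9.796, 9.69 and 169 CPM in HP and 27.3, 18.4 and 9.48 CPM in HA. Without HA replicate 3, 9 genes were called, among them Nt5dc3, Hmgn2, Xbp1 and the pseudogenes Gm12245 and Gm12892, and all but Nub1 and Gm6472 were short of the threshold with it.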

How the data were processed

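RNA-seq of hypothalamus from 9 pups was deposited by the authors as read counts per gene and as FPKM, and the counts were used. The submitters' processing notes list featureCounts 1.5.0-p3, HISAT2 2.0.5 and DESeq2 1.16.1. They name mm9, but 98.3% of gene positions in the table equal those of GENCODE M21 on GRCm38. The kit is not described as stranded. The deposited FPKM values, normalized by length and depth by the authors, entered no test.

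HA was tested against HP with edgeR 4.0.16 (R 4.3.3; quasi-likelihood F test, filterByExpr, TMM, group as the only term, all 9 libraries), with adjusted p-values by Benjamini-Hochberg over 17546 genes and a threshold of 0.05. Values are CPM on TMM-scaled library sizes. The test was tried on simulated counts. DESeq2 1.42.0, limma 3.58.1, other scalings, filters and subsets were alternatives. 56 gene lists were described by counts and medians, with no test of a list. The members and lists were chosen with earlier results of these data known. Genes were named if called by any tool, if among the 12 of smallest p in each direction without overlap (at least 1 CPM), or if among the 3 of smallest p of a list, and a few feeding, ER stress and deacetylase genes always. All other genes were chosen after their values were seen, and some genes of the rule are not reported here. Copies were found with blastn 2.17.0. Whether same-numbered HA and HP replicates belong together is not stated, and they were not paired in the main fit. Libraries held 18226924 to 21823961 counts.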

Additional observations from a re-analysis of the deposited data

Results flagged for a closer look

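An interaction term in edgeR with Benjamini-Hochberg adjustment, which sets HA replicate 3 minus HP replicate 3 (title code Hg13) against the treatment difference among the libraries of code Hg43, passed the threshold for 266 genes. Code Hg13 has 1 library in each group and the spread comes from Hg43 alone, so the test assumes that Hg13 libraries vary alike and cannot show that the codes differ. The genes with the smallest p-values had these log2 interactions (the HA minus HP difference in Hg13 minus that in Hg43). Ptgds had 3.38, Col3a1 3.34, Eln, elastin of the matrix, 3.64, Igfbp2, a growth factor binding protein, 2.95, and Ctgf, a matrix-associated growth factor, 3.49. All 5 were highest in HA replicate 3. In the other direction Gapdh had -5.40, Hmgn2 -2.40, Ebf3, a transcription factor, -1.65, Vcp-rs -1.32 and Gm28437 -1.21. Gm28437 is 100% identical to the mitochondrial gene mt-Co3 over its 783 bases. What separates the codes is not stated in the labels, and the part of tissue outside the hypothalamus in these values was not tested.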

How the results depend on the processing

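Nub1 kept its direction and its call under every alternative run, and Gm6472 kept its direction. The number of genes called, 2, was 8 with DESeq2, 10 with the libraries of code Hg43 alone and 11 without HA and LP replicates 3, and ran from 1 to 9 when single libraries were left out. Genes called higher, 1 in the chosen model, were 2 in the 6 libraries alone, with the title code and with the replicate block, 3 with DESeq2, 4 in code Hg43 and 3 without HA and LP replicates 3, and 1 to 2 with single libraries left out. Genes called lower, also 1, were 0 in the 6 libraries alone, with the title code and with the block, 5 with DESeq2, 6 in code Hg43 and 8 without HA and LP replicates 3, and 0 to 7 with single libraries left out. The replicate block called Cwc22 (log2 1.44, adjusted p = 0.000905 by edgeR) and Nub1 (0.0348). Whether the replicate numbers pair the samples is not stated. Deviations of same-numbered HA and HP libraries correlated at 0.0817, 0.00387 and 0.118, and HA replicate 2 correlated best with HP replicate 1 (0.109). With 3 libraries a group these correlations cannot decide whether samples were paired. Genes called for the title code, 14, were 60 with no filter on low counts and 1 to 737 with single libraries left out, and genes called for its interaction with treatment, 266, were 165 with no filter. Signs turned only in genes that were not called. With single libraries left out, log2 differences ran from -0.017 to 0.40 for Agrp, -0.25 to 0.017 for Mc4r, -0.027 to 0.034 for Ddit3, -0.024 to 0.063 for H1f0, -0.010 to 2.16 for Rbp4, -0.18 to 2.81 for Acta2, -0.13 to 2.87 for Col3a1, -0.30 to 2.73 for Igfbp2, -0.12 to 1.99 for Dcn and -0.24 to 2.93 for Eln. The turn came without HP replicate 1 for Agrp, HA replicate 2 for Mc4r and Ddit3, HP replicate 3 for Ddit3 and H1f0, HA replicate 1 for H1f0, and HA replicate 3 for Ddit3 and the last 6. Without HA and LP replicates 3 the turned values were -0.0013 for Ddit3, -0.013 for Rbp4, -0.18 for Acta2, -0.14 for Col3a1, -0.30 for Igfbp2, -0.12 for Dcn and -0.24 for Eln. In code Hg43 they were -0.030 for Ddit3, -0.023 for Acta2, -0.013 for Dcn and -0.079 for Eln. The cause of these changes was not tested. An older dispersion method of edgeR, the exclusion of HA and LP replicates 3 and all alternatives for the title code were chosen after seeing the data. Of the other values for single genes 3878 kept direction and side of the threshold, 35 passed it only under an alternative and 8 lost it. With 3 libraries a group, and 1 library of each group standing for code Hg13, most list genes without overlap between the groups still missed the threshold, and counts split between near-identical genes are uncertain at any depth.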

Other observations

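Some genes outside the lists stood at separate levels in single libraries. Esf1, a nucleolar protein of ribosome assembly, had 26.2, 28.2 and 25.7 CPM in HP and 13.6, 16 and 25.4 CPM in HA. Dph7, an enzyme of diphthamide synthesis, had 26, 24.4 and 24.4 CPM in HP and 14.9, 15.7 and 22.8 CPM in HA. Among HP and HA libraries both were low in HA replicates 1 and 2, and both were called without HA replicate 3.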
